A study of Homo sapiens with 15 samples.

Results

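Heat shock proteins and J-proteins were followed in K-562 cells exposed to martinostat, a hydroxamic acid that inhibits several histone deacetylases (HDACs). The members were the protein-coding genes whose symbol begins with HSPA, HSPB, HSPD, HSPE, HSPH, HSP90, DNAJA, DNAJB or DNAJC. The rule uses symbols and no measured value, although it was set with earlier results of these data known. It found 76 genes among the 60649 identifiers of the count table. They comprised 12 Hsp70, 3 Hsp110, 3 Hsp90, 2 mitochondrial chaperonin and 7 small heat shock protein genes, 4 DNAJA, 12 DNAJB and 28 DNAJC genes, and 5 further genes that share a symbol start but are readthrough transcripts or proteins that bind chaperones. Of the 76, 69 passed the filter on low counts and were tested.

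K-562 is an established line from a human chronic myeloid leukemia. Untreated K-562 cells were compared with cells kept for 24 h in 0.15, 0.25, 0.5 or 1 µM martinostat, and each of the 5 groups had 3 libraries that the labels number as biological replicates, 15 in all. The study describes these samples as independent experiments. The labels name no vehicle for the untreated cells, and all groups come from a single line at a single time. The RNA was poly(A)-selected, and each library held between 23755510 and 32805574 counts.

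Chaperones hold unfolded proteins until they reach their native shape. Hsp70 proteins bind and release short exposed stretches of a client with each ATP cycle, J-proteins (DNAJA, DNAJB and DNAJC) bring clients and switch on the ATPase, and nucleotide exchange factors, the Hsp110 proteins among them, reopen the cycle. Hsp90 takes over late folding steps of kinases and receptors, and the BCR-ABL kinase of chronic myeloid leukemia is one of its known clients. Chaperonins fold proteins inside a closed chamber, and small heat shock proteins keep clients from aggregating without ATP. Heat shock factor 1 (HSF1) switches on many of these genes through heat shock elements in their promoters, whereas chaperones of the endoplasmic reticulum (ER) answer to unfolded protein there through other factors.

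Promoter sequences are shown first because the heat shock element stands in members that rose and in members that fell. RefSeq promoters (GRCh38.p14, from 250 bases before to 50 bases after a start) were found for 68 of the 76 members. The heat shock element was searched as GAANNTTC or TTCNNGAA on both strands, and its longer form as the first of these followed by NNGAA or the second followed by NNTTC, so that each long match also contains short ones. The short form stood in a promoter of 22 of 68 members (32.4%) and of 4417 of 27305 genes (16.2%), and the long form in 7 members (10.3%) and 166 genes (0.608%). The 7 were DNAJA1, DNAJB6, HSP90AA1, HSP90AB1, HSPA6, HSPA8 and HSPD1. Of the 15 members classed as heat-inducible from general knowledge, 13 held the short form, and the windows of HSPH1 and HSPE1 did not. The stretch printed for HSPD1 also lies before the annotated start of HSPE1 (chr2:197500140, plus strand). For HSPE1 the absence thus concerns the RefSeq window alone. A match describes letters and is no proof of binding. The stretches printed here run 5′ to 3′ along the gene with the searched letters in capitals, and were picked because the results turn on these genes. HSPA8 holds the long form at 2 places, and the one nearer the start is printed.
HSPA1A, chr6:31815425-31815456, plus strand: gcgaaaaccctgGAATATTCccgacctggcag
HSPA1B, chr6:31827621-31827652, plus strand: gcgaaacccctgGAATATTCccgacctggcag
DNAJB1, chr19:14518425-14518486, minus strand: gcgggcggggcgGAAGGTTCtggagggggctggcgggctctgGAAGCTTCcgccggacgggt
HSPA8, chr11:123062167-123062203, minus strand: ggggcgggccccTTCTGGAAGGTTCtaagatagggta
HSP90AA1, chr14:102087093-102087144, minus strand: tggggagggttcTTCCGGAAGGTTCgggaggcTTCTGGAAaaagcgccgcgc
HSPD1, chr2:197500056-197500090, minus strand: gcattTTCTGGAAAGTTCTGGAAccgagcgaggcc
HSPA1A, HSPA1B and DNAJB1, which hold the short form without the long one, were higher at 1 µM than in untreated cells, and HSPA8, HSP90AA1 and HSPD1, which hold the long form, were lower. These were picked, and the split did not hold for all members. Of the others with the short form alone, HSPB8 and HSPA1L were higher at 1 µM and HSPB1, HSPA9, HSPB3, DNAJB4 and DNAJA4 lower. DNAJB7, DNAJC6, DNAJC15, HSPA4L and HSPB6 were not called there. Of the others with the long form, DNAJA1, DNAJB6 and HSP90AB1 were lower and HSPA6 was not called.

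More members fell than rose at every dose, except that with plain library totals as many or more rose at 0.15 and 0.25 µM. A gene was called at an adjusted p under 0.05 (edgeR quasi-likelihood test, Benjamini-Hochberg adjustment over 23711 genes). At 0.15 µM 42 of 69 members were called, 15 higher and 27 lower, while 51.2% of all tested genes were called (31.9% higher, 19.4% lower). At 0.25 µM the 47 called members were 14 higher and 33 lower, against 62.2% of all genes (37.4% and 24.8%). At 0.5 µM they were 20 higher and 32 lower, 52 in all, against 66.9% (39.4% and 27.6%), and at 1 µM 21 higher and 34 lower, 55 in all, against 66.2% (38.8% and 27.5%). Of the 69 members, 39 were called with a change over 2-fold at 1 µM (51.6% of all genes), and for 58 the untreated and 1 µM libraries did not overlap (74.9% of all genes). The members' median log2 fold change was -0.21, -0.43, -0.42 and -0.40 with rising dose, beside 0.281, 0.316, 0.34 and 0.317 over all genes. Levels are given in CPM, counts per 1000000 of a library's total after scaling the totals by trimmed means (TMM). Genes with more message fell more often in general: for the 49 members with a mean of at least 10 CPM the median at 1 µM was -0.69, with 10 higher and 30 lower, beside -0.387 with 26.4% higher and 48.4% lower over the 10124 genes of that level.

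How many members counted as higher depended on the scaling between libraries. Taking plain library totals instead, 22 members rose and 22 fell at 0.15 µM, 26 and 24 at 0.25 µM, 23 and 24 at 0.5 µM, and 22 and 25 at 1 µM, and the median of all genes moved to 0.64, 0.844, 0.722 and 0.668. With TMM factors from genes of 10 CPM or more, the called members were 20 higher and 23 lower, 22 and 27, 24 and 25, and 24 and 25. The share of a library's counts that fell on the 76 members uses no TMM factor but rests on plain library totals, so it also depends on the counts of the other genes. It was 2.05% ± 0.0815 in untreated cells (SD, n = 3) and 1.52% ± 0.0661, 1.37% ± 0.0425, 1.35% ± 0.0308 and 1.33% ± 0.0761 at the rising doses. The share weighs genes by level, so it mostly describes the Hsp90 and Hsp70 families. These summed to 10094 and 7902 CPM in untreated cells and 5394 and 3883 CPM at 1 µM. The DNAJB sum rose from 721 to 1260 CPM, and those of the other families fell. DNAJB1 alone went from 283 to 877 CPM, and the DNAJB sum without it did not rise.

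The dose steps were unequal. From 0.15 to 0.25 µM 14 members moved, 1 up and 13 down, against 12.3% of all genes (4.96% and 7.32%). That count was 7 without replicate 3 and 9 without replicate 2 at 0.15 µM. From 0.25 to 0.5 µM 33 moved, 15 up and 18 down, against 30.4% (14.4% and 16.0%). From 0.5 to 1 µM edgeR called 0 members and 0.0% of all genes, DESeq2 called 0, and at an unadjusted p under 0.05 there was 1 member, HSPA6, and 372 genes in all. Between 0.15 and 1 µM 37 members differed, 13 up and 24 down, against 44.5% (21.5% and 23.1%), and 55 differed among the 5 groups against 73.6%. In sum 23 members were lower at all 4 doses (15.1% of all genes), 12 were higher at all 4 (24.6%), 3 were called in opposite directions at 0.15 and 1 µM, 20 were called at some doses, and 11 at none.

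**Figure D1:**
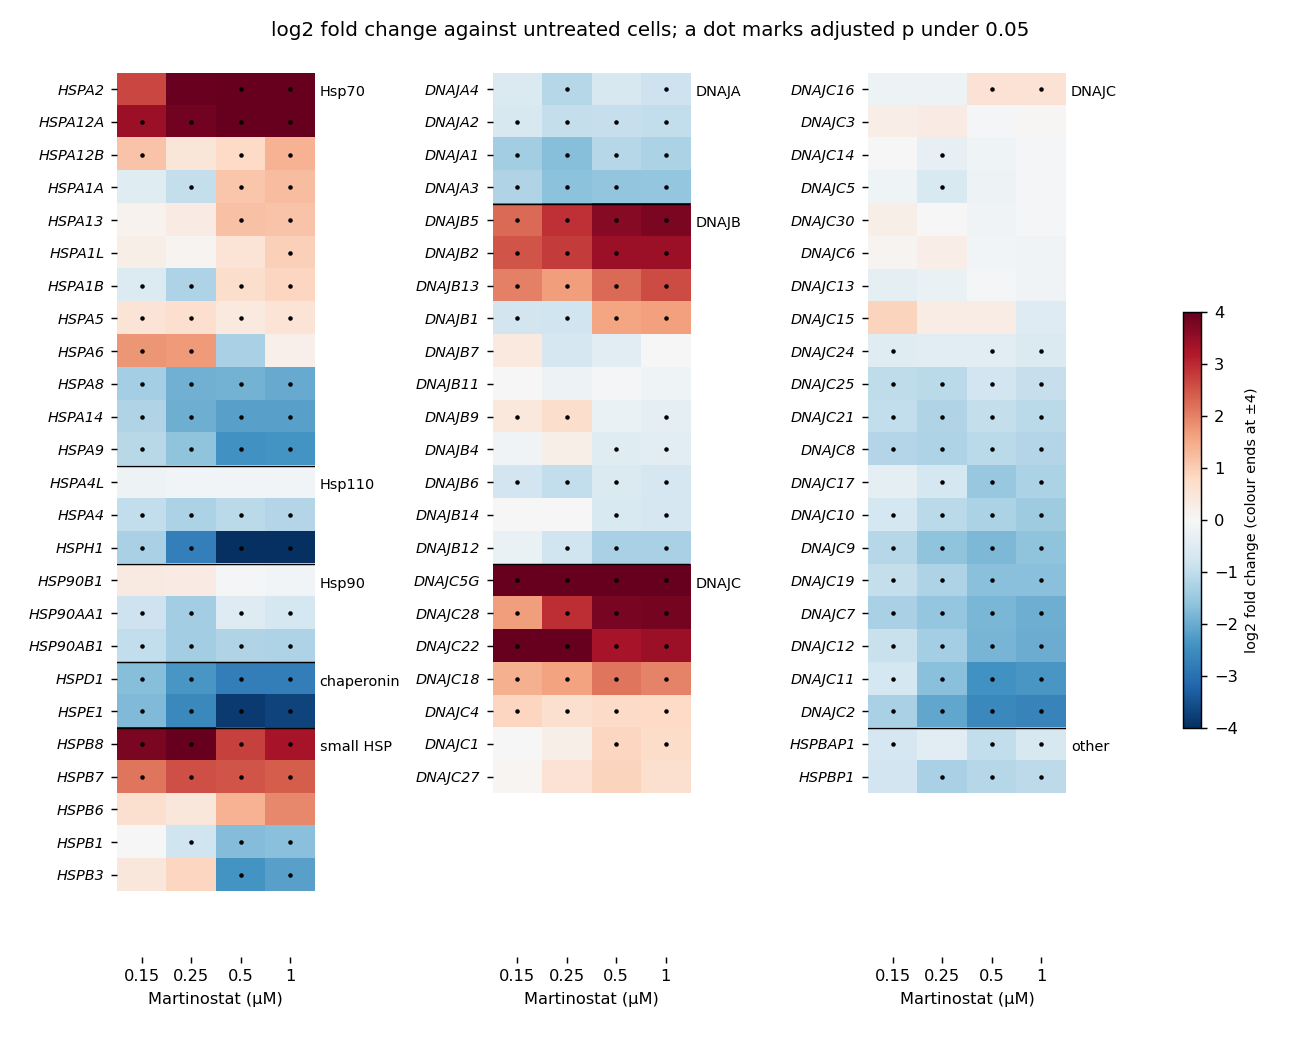
Heat map of the log2 fold change of the 69 tested members at 4 martinostat doses in µM (columns) against untreated cells, grouped by family and sorted by the value at 1 µM, with dots for calls at an adjusted p under 0.05 and colours that end at ±4. HSPH1, HSPE1 and HSPD1 darken to blue from 0.15 to 0.5 µM, and DNAJB1, HSPA1A and HSPA1B turn from blue to red between 0.25 and 0.5 µM.

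Replicate 3 at 0.25 and at 0.5 µM stood apart from the other 13 libraries, with scores of 74.8 and 79.6 on the third principal component (4.14% of the variance) where no other passed 19.3. Without both, 47, 51, 51 and 57 members were called at the 4 doses. Of 7 erythroid markers of K-562, 6 were above 1 CPM in untreated cells and HBE1 was not. Their summed level was 2025 to 2199 CPM in untreated libraries and 331 to 548 CPM at 1 µM, where 5 of the 7 were lower and 1 higher. Of 8 markers of other lineages, MS4A1 and ELANE had 0 counts in untreated cells. The 8 summed to 145 to 158 CPM in untreated libraries and 321 to 508 CPM at 1 µM, or without COL1A1 to 139 to 154 CPM and 29.7 to 35.6 CPM, and of the 6 tested 3 were higher and 2 lower. Most of the sums without COL1A1 was EPCAM, an epithelial marker. It held 130, 148 and 145 CPM in untreated libraries and averaged 20.5 CPM at 1 µM. Their part in the chaperone values was not tested, and in bulk RNA fewer cells of a type and less RNA per cell cannot be told apart.

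Heat-inducible genes were called in both directions. At 1 µM 4 of the 15 were higher (HSPB8, DNAJB1, HSPA1A and HSPA1B), 9 were lower, and HSPA6 and HSPA4L were not called. Over all genes 38.8% were higher and 27.5% lower there, and over genes of at least 10 CPM 26.4% and 48.4%. At 0.15 µM HSPB8 and HSPA6 were higher and 8 were lower, beside 31.9% and 19.4% of all genes. The median log2 fold change of the 15 was -0.57, -1.14, -0.64 and -0.69 with rising dose. HSPB8 passed the filter on low counts through treated libraries, so it could hardly be called lower.

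DNAJB1 (ENSG00000132002.9, chr19:14514769-14560391 in hg38, minus strand) encodes a J-protein that works with cytosolic Hsp70 under stress. Untreated libraries held 289, 281 and 278 CPM, those at 0.15 µM 157, 163 and 188 CPM and those at 0.25 µM 201, 180.3 and 107 CPM. At 0.5 µM the libraries held 1069, 901 and 539 CPM, the lowest being replicate 3, and at 1 µM 894, 1051 and 686 CPM. All libraries of the lower 2 doses lay below the untreated ones, and all of the upper 2 doses above them. Against untreated cells the log2 fold change came to -0.74 (adjusted p = 0.0152, SE 0.24) at 0.15 µM, -0.80 (adjusted p = 0.00761, SE 0.24) at 0.25 µM, 1.57 (adjusted p = 1.59e-05, SE 0.24) at 0.5 µM and 1.63 (adjusted p = 9.88e-06, SE 0.24) at 1 µM. The step from 0.25 to 0.5 µM alone was 2.36 (adjusted p = 9.97e-07, SE 0.25), and 2.39 without the 2 libraries that stood apart. The falls at 0.15 and 0.25 µM were not called with library totals, where they were -0.38 and -0.30, nor the first without replicate 1 at 0.15 µM (-0.69).

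HSPA1A and HSPA1B encode the stress-inducible cytosolic Hsp70 and start 12195 bases apart on chromosome 6. They are near-identical copies, so the split of reads between them is uncertain, and 36.6% of the exonic bases of HSPA1B are shared with another annotated gene of its strand. HSPA1A (ENSG00000204389.10, chr6:31815543-31817946, plus strand) held 105, 127 and 118 CPM in untreated libraries, 79.2, 82.8 and 87.8 CPM at 0.15 µM and 69.1, 69.1 and 44.7 CPM at 0.25 µM. It held 299.5, 294 and 167 CPM at 0.5 µM and 339.7, 233 and 246 CPM at 1 µM. As for DNAJB1, no treated library overlapped with the untreated range, being below it at the lower 2 doses and above it at the upper 2. The log2 difference from untreated cells was -0.49 (adjusted p = 0.0631, SE 0.21) at 0.15 µM, which was not called, -0.94 (adjusted p = 8.91e-04, SE 0.21) at 0.25 µM and 1.23 (adjusted p = 5.57e-05, SE 0.21) at 1 µM. HSPA1B (ENSG00000204388.7, chr6:31827738-31830254, plus strand) averaged 84.7 ± 6.95 CPM in untreated cells (SD, n = 3) and 57.4 ± 5.88, 36.3 ± 7.75, 137 ± 34.6 and 154 ± 31.7 CPM with rising dose, a log2 fold change of -0.56 (adjusted p = 0.0237, SE 0.20) at 0.15 µM and of 0.86 (adjusted p = 8.35e-04, SE 0.20) at 1 µM.

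DNAJB1 and HSPA1B were thus lower at 0.15 µM and higher at 1 µM, as were 0.536% of all genes, and differed between these doses by 2.37, SE 0.25 and 1.43, SE 0.20 on the log2 scale. Neither was called in both directions with library totals, with TMM from genes of 10 CPM or more, or without replicate 1 at 0.15 µM, whereas HSPA1A joined them with DESeq2. Without replicate 2 or 3 of the untreated cells, or replicate 2 at 0.15 µM, DNAJB1 alone was called in both directions.

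HSPH1, an Hsp110 that reloads Hsp70 with ATP and is a classical heat shock gene, moved the other way (ENSG00000120694.20, chr13:31134973-31162388, minus strand). Its libraries held 362, 417 and 418 CPM without treatment, 155, 165 and 166 CPM at 0.15 µM and 57.0, 64.7 and 58.4 CPM at 0.25 µM. They held 24.8, 23.4 and 11.9 CPM at 0.5 µM and 22.4, 20.7 and 23.7 CPM at 1 µM. Up to 0.5 µM each dose lay below the one before without overlap. Relative to untreated cells HSPH1 stood at -1.30 (adjusted p = 1.79e-05, SE 0.19) at 0.15 µM and -4.16 (adjusted p = 7.79e-12, SE 0.22) at 1 µM on the log2 scale, the lowest value of any member at that dose. Between 0.25 and 0.5 µM, where DNAJB1 and HSPA1A rose, it changed by -1.59 (adjusted p = 6.03e-06, SE 0.20), and by -1.32 without the 2 libraries that stood apart. Of the other Hsp110 genes, HSPA4 was lower at all 4 doses (744 ± 88.9 CPM untreated, 331 ± 44.1 CPM at 1 µM, log2 fold change -1.17, SE 0.17), and HSPA4L was called at none (76.9 ± 4.12 and 71.3 ± 6.19 CPM).

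**Figure D2:**
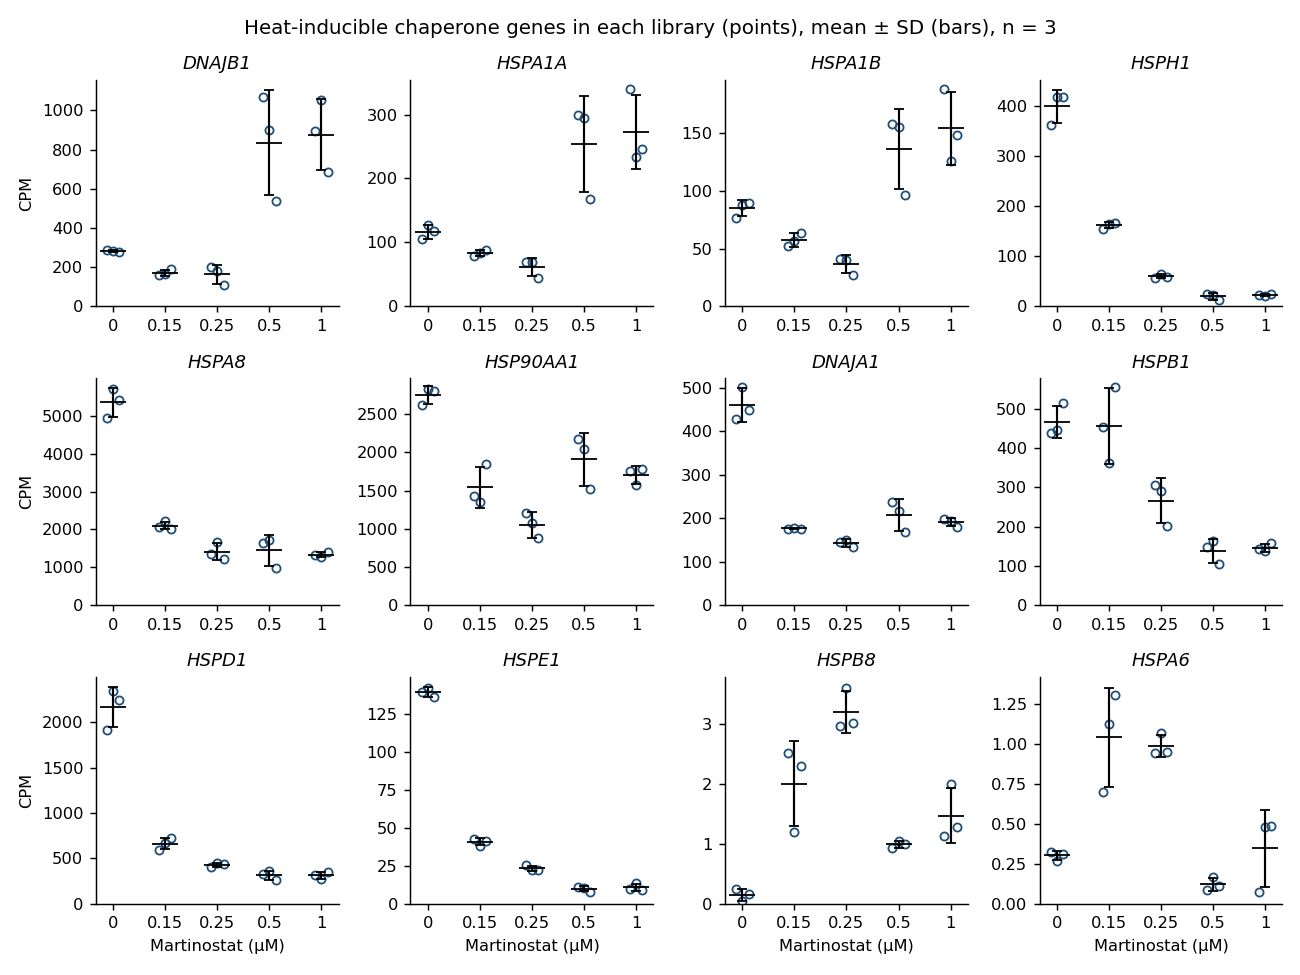
CPM of 12 of the 15 heat-inducible members in each library (open points) against martinostat dose in µM, with 0 for untreated cells and bars for the mean ± SD of 3 libraries. DNAJB1, HSPA1A and HSPA1B dip at 0.15 and 0.25 µM and exceed untreated cells at 0.5 and 1 µM, whereas HSPH1, HSPD1 and HSPE1 are lowest at 0.5 and 1 µM.

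The members with the most message in untreated cells, HSPA8, HSP90AA1 and HSP90AB1 of the cytosol, were lower at each dose. HSPA8, the gene of Hsc70 (ENSG00000109971.14, chr11:123057489-123063230, minus strand), held 4941, 5724 and 5425 CPM in untreated libraries, 2066, 2214 and 2022 CPM at 0.15 µM and 1313, 1273 and 1399 CPM at 1 µM. Every treated library lay below every untreated one. Its log2 fold change came to -1.35 (adjusted p = 1.65e-05, SE 0.20) at 0.15 µM and -2.01 (adjusted p = 6.19e-08, SE 0.20) at 1 µM. Within each library, HSPA1A and HSPA1B together reached 0.0743 ± 0.00146 of the level of HSPA8 per kilobase of exon without treatment (SD, n = 3). The same ratio was 0.133 ± 0.0134 and 0.136 ± 0.0230 at the lower 2 doses, and 0.536 ± 0.0193 and 0.639 ± 0.138 at the upper 2. A ratio inside a library does not depend on the scaling between libraries, and no dose overlapped with untreated cells.

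HSP90AA1, the stress-responsive cytosolic Hsp90, held 2623, 2831 and 2812 CPM in untreated libraries, 1208, 1072 and 876 CPM at 0.25 µM and 1758, 1572 and 1784 CPM at 1 µM. It was lowest at 0.25 µM, -1.39 (adjusted p = 2.89e-06, SE 0.18) on the log2 scale, and then regained 0.86 (adjusted p = 0.00128, SE 0.18) to 0.5 µM while staying below untreated cells. How far below depended on the scaling: -0.53 at 0.5 µM here, -0.17 with library totals and -0.13 with TMM from genes of 10 CPM or more. At 1 µM the difference from untreated cells was -0.69 (adjusted p = 0.00253, SE 0.18), and -0.31 and not called with TMM from genes of 10 CPM or more. HSP90AB1, the constitutive cytosolic form, averaged 6247 ± 497 CPM without treatment and 3157 ± 422, 2389 ± 237, 2708 ± 468 and 2672 ± 287 CPM with rising dose, -1.23 (adjusted p = 8.76e-06, SE 0.18) at 1 µM on the log2 scale. HSP90AA1 over HSP90AB1 per kilobase was 0.258 ± 0.0108 in untreated cells and 0.374 ± 0.0160 at 1 µM, without overlap.

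The other cytosolic Hsp70 genes were at low levels, HSPA14 apart. HSPA14, of the ribosome-associated complex, fell from 69.7 ± 4.22 to 15.4 ± 0.811 CPM at 1 µM (-2.18, SE 0.14 on the log2 scale). HSPA2, known from spermatogenesis, had 0 counts in the 3 untreated libraries and 110 at 1 µM, at least 32.4-fold higher with the untreated group as a whole set to 3 counts. HSPA12A, a distant relative of Hsp70, had counts in 1 untreated library and averaged 0.141 ± 0.245 CPM there against 1.57 ± 0.219, 2.13 ± 0.228, 6.44 ± 0.219 and 5.22 ± 0.622 CPM with rising dose. HSPA12B and HSPA1L reached 3.36 ± 0.972 and 5.06 ± 0.936 CPM at 1 µM from 1.28 ± 0.134 and 2.59 ± 0.418 CPM. HSPA6, the strictly inducible Hsp70B′, was higher at the lower 2 doses, where HSPA1A lay below untreated cells. It averaged 0.303 ± 0.0295 CPM without treatment, 1.05 ± 0.310 and 0.990 ± 0.0711 CPM at the lower 2 doses and 0.121 ± 0.0410 and 0.347 ± 0.239 CPM at the upper 2. The log2 rise was 1.77 (adjusted p = 0.00967, SE 0.53) at 0.15 µM and 1.69 (adjusted p = 0.0101, SE 0.53) at 0.25 µM, and HSPA6 dropped by 2.99 (SE 0.60, adjusted p = 7.51e-04) to 0.5 µM. Against untreated cells it was not called at 0.5 µM (-1.30) or at 1 µM (0.20). Over the whole family, 8 of 12 Hsp70 genes rose and 3 fell at 1 µM (66.7% and 25.0%, beside 38.8% and 27.5% of all genes). At 0.15 µM 4 rose and 4 fell (33.3% each, beside 31.9% and 19.4% of all genes). HSPA2, HSPA12A, HSPA12B and HSPA1L, all at low levels, are among those that rose at 1 µM. HSPA2 and HSPA12A passed the filter on low counts through treated libraries, so they could hardly be called lower, and the 66.7% includes them.

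Most mitochondrial members were lower. Of 8 members of this compartment 6 were called lower at each of the 4 doses and DNAJC15 and DNAJC30 at none, also with library totals, with both other scalings and with DESeq2 at 1 µM. Over all genes 15.1% were lower at all 4 doses. At 1 µM 27.5% of all genes were lower, and 48.4% of those of at least 10 CPM. The median log2 fold change of the 8 was -1.03 at 0.15 µM and -2.0 at 1 µM. Between these doses 7 of the 8 were lower, against 23.1% of all genes.

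HSPD1 (ENSG00000144381.18, chr2:197486584-197516737, minus strand) encodes Hsp60, the chamber of the mitochondrial chaperonin. Untreated libraries held 1916, 2339 and 2246 CPM, those at 0.15 µM 597, 668 and 723 CPM, at 0.25 µM 407, 449.6 and 433 CPM, at 0.5 µM 329.8, 357 and 257 CPM and at 1 µM 313, 278 and 355 CPM. Each dose up to 0.5 µM lay below the one before without overlap. On the log2 scale HSPD1 was at -1.71 (adjusted p = 9.30e-08, SE 0.16) at 0.15 µM and -2.78 (adjusted p = 7.20e-11, SE 0.17) at 1 µM.

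HSPE1, the lid of that chamber, lies within the span of HSPD1 on the other strand (ENSG00000115541.11, chr2:197500140-197503449, plus strand). It held 139, 142 and 136 CPM in untreated libraries, 42.7, 38.2 and 41.5 CPM at 0.15 µM and 9.71, 13.6 and 8.92 CPM at 1 µM. No treated library came near the untreated range. The difference from untreated cells was -1.77 (adjusted p = 3.36e-08, SE 0.16) at 0.15 µM and -3.69 (adjusted p = 1.82e-12, SE 0.17) at 1 µM. The annotation holds 26 pseudogenes named after HSPE1 and 18 after HSPD1, and reads that fit several copies may be missing from the gene's count. Those pseudogenes summed to 3.04 and 32.6 CPM in untreated cells and to 1.48 and 7.05 CPM at 1 µM.

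HSPA9, the mitochondrial Hsp70 (mortalin), held 938, 1048 and 954 CPM without treatment and 195, 168 and 199.9 CPM at 1 µM. It stood at -1.10 (adjusted p = 4.08e-06, SE 0.14) at 0.15 µM and -2.39 (adjusted p = 9.16e-11, SE 0.15) at 1 µM. J-proteins of the compartment fell with it. DNAJA3, a partner of HSPA9, went from 202 ± 10.2 to 69.5 ± 9.52 CPM at 1 µM (-1.54, SE 0.13), and DNAJC11, which belongs to the cristae-organising complex, from 189 ± 11.6 to 37.6 ± 1.52 CPM (-2.33, SE 0.14). DNAJC19, of the protein import motor, went from 35.9 ± 0.414 to 11.2 ± 1.25 CPM (-1.67, SE 0.15). The members not called averaged 0.911 ± 0.341 and 0.629 ± 0.142 CPM (DNAJC15) and 16.8 ± 1.504 and 15.8 ± 3.04 CPM (DNAJC30) in untreated cells and at 1 µM.

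**Figure D3:**
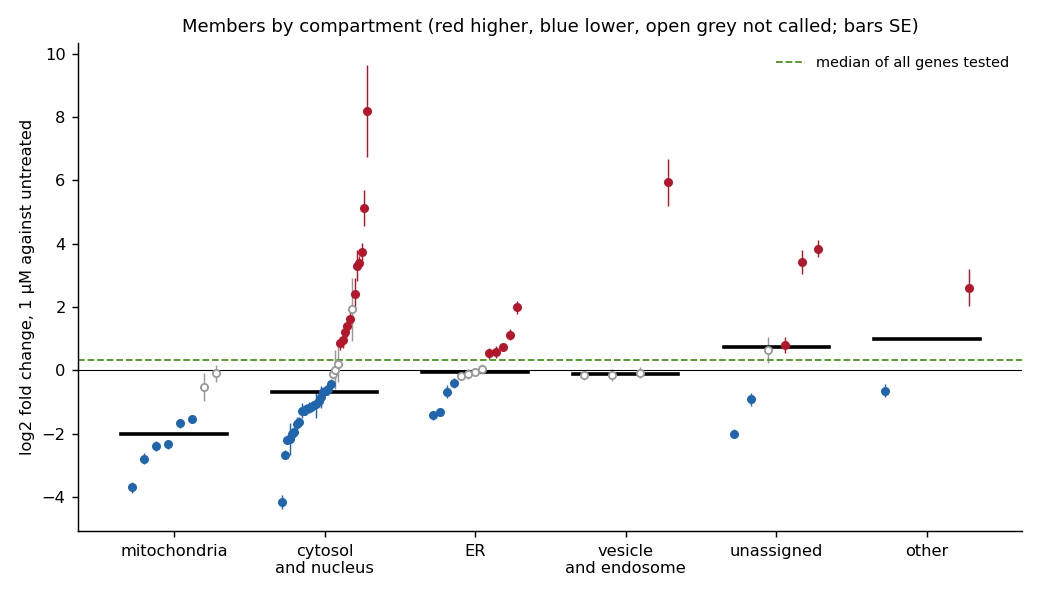
The log2 fold change at 1 µM against untreated cells for the 69 tested members by compartment, each point with its SE, the black bar giving the group's median and the dashed line the median of all genes tested (0.317). Compartments were assigned from general knowledge. Members classed as mitochondrial have a median of -2.0 with none above 0, those of the ER a median of -0.04, and cytosolic and nuclear members spread from -4.16 to 8.20.

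ER members were called in both directions, in shares near those of all genes at 1 µM. Of 13, 3 rose and 1 fell at 0.15 µM, beside 31.9% and 19.4% of all genes. At 1 µM 5 rose and 4 fell (38.5% and 30.8%, beside 38.8% and 27.5% of all genes), or 6 and 2 with library totals and 7 and 2 with TMM from genes of 10 CPM or more. HSPA5, the gene of BiP, which is the Hsp70 of the ER, held 1119, 1316 and 1266 CPM in untreated libraries, 1613, 1828 and 1983 CPM at 0.15 µM and 2042, 2203 and 1684 CPM at 0.25 µM. It held 1721, 1797 and 1332 CPM at 0.5 µM and 1874, 1603 and 1921 CPM at 1 µM. Every treated library exceeded the untreated ones, with no order by dose. The rise was 0.55 (adjusted p = 0.011, SE 0.17), 0.68 (adjusted p = 0.00195, SE 0.17), 0.39 (adjusted p = 0.0498, SE 0.17) and 0.54 (adjusted p = 0.00864, SE 0.17) on the log2 scale with rising dose. The call at 0.5 µM was lost in 13 of 24 alternative settings, and that at 0.15 µM without replicate 1 of the untreated cells (0.49).

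HSP90B1, the Hsp90 of the ER (GRP94), held 996, 1169 and 1111 CPM in untreated libraries, 1329.8, 1366 and 1548 CPM at 0.15 µM, 1284, 1243 and 1598 CPM at 0.25 µM and 1026, 914 and 1115 CPM at 1 µM. All libraries of the lower 2 doses lay above the untreated ones, as for HSPA5, yet no dose was called. Its log2 fold change was 0.37 (adjusted p = 0.0519, SE 0.16), 0.33 (adjusted p = 0.0706, SE 0.16) and -0.10 (adjusted p = 0.584, SE 0.16) at these doses, and 0.73, 0.87 and 0.25 with library totals. Between the lowest and the highest dose it differed by -0.47 (adjusted p = 0.0185, SE 0.16) on the log2 scale, a call lost in 5 of 24 alternative settings. The promoters of HSPA5 and HSP90B1 are the 2 of 68 members (2.94%) that hold the ER stress element, searched on both strands as CCAAT and CCACG with 9 bases between them, against 25 of 27305 genes (0.0916%). They are shown as the promoters of the Hsp70 and the Hsp90 of the ER, and whether these genes differ in response was not tested. HSPA5 holds 1 such element and HSP90B1 holds 2, of which the one farther from the start is printed.
HSPA5, chr9:125241379-125241421, minus strand: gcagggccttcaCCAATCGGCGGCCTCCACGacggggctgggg
HSP90B1, chr12:103930204-103930246, plus strand: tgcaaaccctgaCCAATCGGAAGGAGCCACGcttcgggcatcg

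DNAJB9 (ERdj4), a J-protein of the ER known to be induced by ER stress, held 14.2, 16.5 and 16.2 CPM in untreated libraries, 23.2, 23.0 and 16.2 CPM at 0.15 µM and 23.5, 25.7 and 26.5 CPM at 0.25 µM. It held 12.7, 13.2 and 12.8 CPM at 0.5 µM and 11.1, 10.7 and 13.8 CPM at 1 µM. The libraries at 0.25 µM lay above the untreated range and those at 0.5 and 1 µM below it, while 1 library at 0.15 µM lay within it. DNAJB9 was called higher at 0.15 µM (0.41, adjusted p = 0.0431, SE 0.16) and at 0.25 µM (0.69, adjusted p = 0.0012, SE 0.16) and lower at 1 µM (-0.40, adjusted p = 0.0397, SE 0.16), a turn shown by 1.43% of all genes, and its difference between 0.15 and 1 µM was -0.81 (adjusted p = 5.32e-04, SE 0.16). The calls at 0.15 µM and at 1 µM were each lost in 12 of 24 alternative settings, and with library totals the value at 1 µM was -0.04.

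The remaining ER members divided by gene. HSPA13, an Hsp70 that lacks the client-binding part, rose from 49.9 ± 5.79 to 109 ± 4.34 CPM at 1 µM (1.13, SE 0.17), DNAJC1 from 117 ± 5.26 to 196 ± 13.0 CPM (0.74, SE 0.13) and DNAJC18 from 4.97 ± 1.38 to 19.8 ± 2.81 CPM (1.99, SE 0.20). HSPA13, DNAJC1 and DNAJC16 were called at 0.5 and 1 µM and not at the lower 2 doses. DNAJC10, a J-protein that reduces disulfide bonds, fell from 153 ± 11.5 to 57.6 ± 7.47 CPM (-1.41, SE 0.14), and DNAJB12, of the ER membrane, from 64.6 ± 3.92 to 26.02 ± 1.15 CPM (-1.31, SE 0.13). DNAJB14, its close relative, was called lower at 0.5 and 1 µM (26.7 ± 2.30 CPM at 1 µM from 42.4 ± 2.93 CPM, -0.67, SE 0.20), and the call at 1 µM was lost in 3 of 24 alternative settings (-0.31 with library totals). DNAJB11 (ERdj3) and DNAJC3, which both assist BiP, were called at no dose, with -0.18, SE 0.13 and 0.04, SE 0.16 at 1 µM. DNAJC3 was called there with library totals (0.39) and with TMM from genes of 10 CPM or more (0.42).

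All 4 DNAJA genes were lower at 1 µM, as were 27.5% of all genes and 48.4% of those of at least 10 CPM. DNAJA1, a partner of Hsc70, held 429, 503 and 450.0 CPM in untreated libraries and 145, 151 and 133 CPM at 0.25 µM, -1.69 (adjusted p = 1.11e-08, SE 0.14) on the log2 scale. It regained 0.54 (adjusted p = 0.00703, SE 0.14) to 0.5 µM, as HSP90AA1 did, and held 199, 194 and 179.9 CPM at 1 µM, below each untreated library. That gain was not called without replicate 1 at 0.5 µM (0.43). DNAJA2 went from 127 ± 5.25 to 64.8 ± 1.95 CPM (-0.97, SE 0.12), and DNAJA4, at under 5 CPM, was at -0.84, SE 0.35, a call lost in 15 of 24 alternative settings. Per kilobase of exon DNAJB1 reached 0.201 ± 0.0192 of DNAJA1 in untreated cells and 1.49 ± 0.262 at 1 µM, without overlap.

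DNAJB2, known from neurons as a J-protein that passes clients to the proteasome, rose most among members of at least 10 CPM (ENSG00000135924.17, chr2:219279342-219286898, plus strand). Its libraries held 9.52, 10.9 and 6.30 CPM without treatment, 41.7, 44.7 and 65.3 CPM at 0.15 µM, 69.4, 59.8 and 55.5 CPM at 0.25 µM, 92.3, 95.7 and 100.3 CPM at 0.5 µM and 103, 86.7 and 94.8 CPM at 1 µM. All treated libraries lay above the untreated ones, and those at 0.5 and 1 µM above those at 0.25 µM. The rise was 2.51 (adjusted p = 6.81e-09, SE 0.20) at 0.15 µM and 3.41 (adjusted p = 5.09e-11, SE 0.21) at 1 µM on the log2 scale.

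Other DNAJB genes went both ways. DNAJB5 rose from 0.827 ± 0.121 to 11.2 ± 0.540 CPM at 1 µM (3.75, SE 0.28), and DNAJB13, 28.8% of whose exonic bases overlap other genes, from 0.145 ± 0.0442 to 0.906 ± 0.292 CPM. DNAJB6, which holds back aggregates of polyglutamine proteins, fell from 226 ± 13.2 to 144 ± 3.15 CPM (-0.66, SE 0.12), a call lost with library totals (-0.30). DNAJB4 fell from 19.5 ± 1.08 to 14.6 ± 0.445 CPM (-0.42, SE 0.16), a call lost in 10 of 24 alternative settings. Of the 11 tested DNAJB genes 4 were higher and 5 lower at 1 µM, or 4 and 1 with library totals. The first counts are 36.4% and 45.5%, beside 38.8% and 27.5% of all genes.

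At 1 µM the 27 tested DNAJC genes split into 7 called higher and 12 called lower. As shares these are 25.9% and 44.4%, beside 38.8% and 27.5% over all genes. Genes of at least 10 CPM gave 26.4% and 48.4%, but some DNAJC genes lie below that level. DNAJC2, the J-protein of the ribosome-associated complex with HSPA14, held 152, 177 and 159 CPM in untreated libraries, 67.8, 60.2 and 71.5 CPM at 0.15 µM and 24.4, 27.2 and 25.4 CPM at 1 µM. These 3 groups did not overlap. DNAJC2 stood at -1.29 (adjusted p = 4.27e-07, SE 0.14) at 0.15 µM and -2.66 (adjusted p = 1.71e-11, SE 0.15) at 1 µM, and 21.1% of its exonic bases overlap other annotated genes. DNAJC12 fell from 49.6 ± 2.39 to 12.5 ± 1.35 CPM at 1 µM (-1.99, SE 0.13) and DNAJC7, which binds both Hsp70 and Hsp90, from 178 ± 15.2 to 46.1 ± 2.64 CPM (-1.95, SE 0.15). DNAJC8, DNAJC9, a histone chaperone with 56.5% of its exonic bases under another gene, and DNAJC21, a factor of ribosome maturation, were lower at all 4 doses and stood at -1.16, SE 0.14, -1.62, SE 0.15 and -1.08, SE 0.11 at 1 µM.

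Among the 7 that were higher, DNAJC28, DNAJC22 and DNAJC5G began under 1 CPM. DNAJC28 averaged 0.655 ± 0.237 CPM without treatment and 2.11 ± 0.0405, 5.04 ± 0.932, 9.12 ± 1.46 and 9.49 ± 0.618 CPM with rising dose, and was the 1 member higher at 0.25 than at 0.15 µM (1.26, adjusted p = 0.00195, SE 0.24). DNAJC22 peaked at 0.25 µM, with 0.515 ± 0.113 CPM untreated, 14.5 ± 5.31 CPM at 0.25 µM and 5.09 ± 2.70 CPM at 0.5 µM, a step of -1.5 (adjusted p = 8.09e-04, SE 0.30). DNAJC5G, a relative of the synaptic vesicle J-protein DNAJC5, had 2 counts in untreated cells and 162 at 1 µM, a ratio of 71.6 with a 95% exact interval of 19.5 to 597 that covers counting error only. DNAJC5 itself, DNAJC6 (auxilin) and DNAJC13, which act on vesicles and endosomes, were not called at 1 µM, with 119 ± 7.32, 144 ± 14.8 and 30.2 ± 0.866 CPM from 125 ± 3.42, 158 ± 15.3 and 33.5 ± 1.17 CPM. DNAJC5 was lower at 0.25 µM (-0.60, SE 0.17).

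Small heat shock proteins followed separate courses. HSPB1 (Hsp27), the single one above 5 CPM here, held 439, 447 and 515 CPM in untreated libraries, 454, 363 and 556 CPM at 0.15 µM, 307, 291 and 202 CPM at 0.25 µM, 147, 164 and 105 CPM at 0.5 µM and 142, 137 and 158 CPM at 1 µM. At 0.15 µM the libraries reached below and above the untreated range, and from 0.25 µM all lay below it. HSPB1 stood at -0.81 (adjusted p = 0.00144, SE 0.19) at 0.25 µM, not called with library totals (-0.30), and at -1.68 (adjusted p = 5.01e-07, SE 0.20) at 1 µM. HSPB8, which works with BAG3 in selective autophagy, averaged 0.147 ± 0.104 CPM without treatment and 2.01 ± 0.711, 3.21 ± 0.352, 0.992 ± 0.0602 and 1.47 ± 0.462 CPM with rising dose, with a step of -1.69 (adjusted p = 0.00188, SE 0.37) from 0.25 to 0.5 µM. HSPB7 was higher at all doses (2.13 ± 0.903 CPM at 1 µM from 0.396 ± 0.0892 CPM), HSPB3 lower at 0.5 and 1 µM (0.174 ± 0.0587 CPM at 1 µM from 0.801 ± 0.253 CPM), and HSPB6 was called at no dose.

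Levels per kilobase of exon give the order between genes. In untreated cells HSP90AB1 stood first at 2096 ± 167 CPM per kb (SD, n = 3), then HSPA8 at 1106 ± 81.5, HSP90AA1 at 541 ± 22.6, and HSPB1 at 288 ± 25.6 and HSPD1 at 284 ± 29.1 CPM per kb, whose libraries overlapped. HSPA5 at 189 ± 15.6 and DNAJA1 at 173 ± 14.3 CPM per kb overlapped too. At 1 µM HSP90AB1 was first at 896 ± 96.4 and HSP90AA1 second at 334 ± 22.7 CPM per kb, and HSPA5 at 276 ± 26.3 and HSPA8 at 274 ± 13.3 CPM per kb did not differ beyond their spread. HSPA1A at 114 ± 24.2 and DNAJB1 at 107 ± 22.4 CPM per kb came next, with overlapping libraries. The ratio of HSPA5 to HSPA8 was 0.171 ± 0.00250 in untreated cells and 0.640 ± 0.0778 at 0.15 µM.

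**Figure D4:**
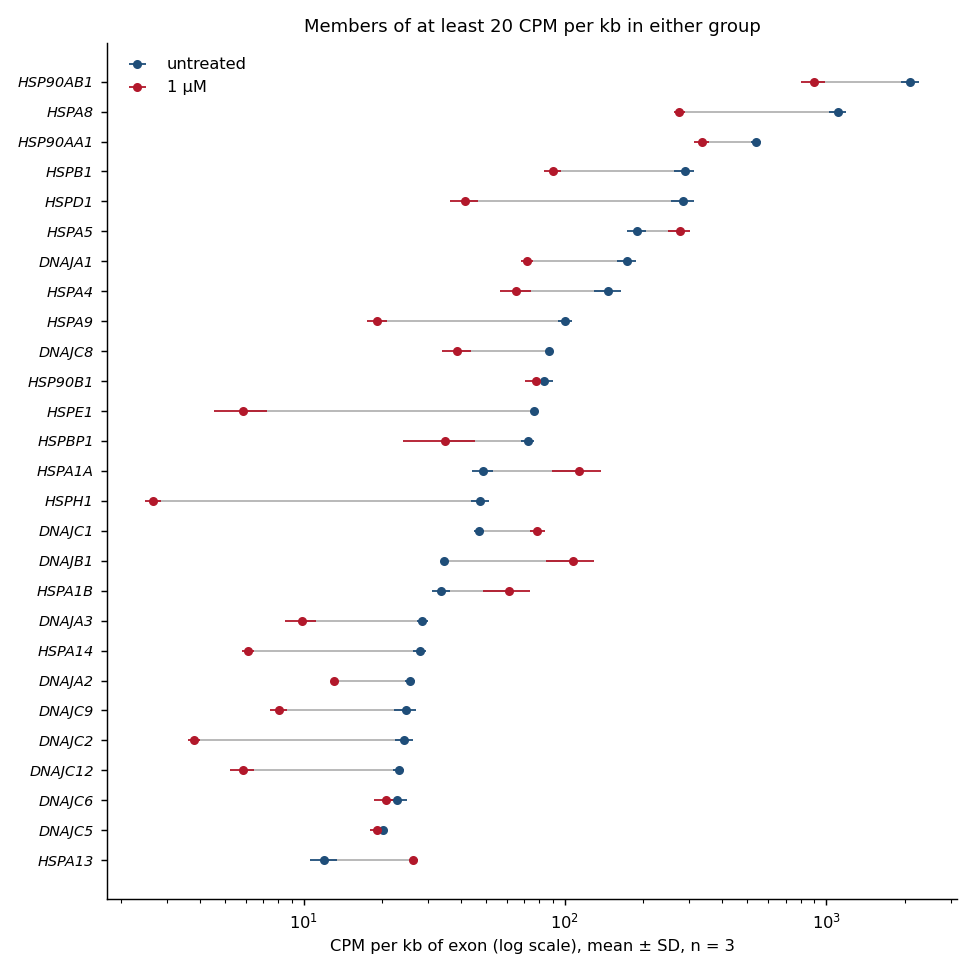
CPM per kilobase of exon on a log scale for the 27 members of at least 20 CPM per kb in untreated cells or at 1 µM, as mean ± SD of 3 libraries, sorted by the untreated level. HSPH1 and HSPE1 move farthest to the left and DNAJB1 farthest to the right, and HSPA5 at 1 µM meets HSPA8.

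Partners of these chaperones were counted from lists of general knowledge, beside 38.8% of all genes higher and 27.5% lower at 1 µM. The genes of the lists in this paragraph all averaged at least 10 CPM, and of all genes at that level 26.4% were higher and 48.4% lower. All 8 subunits of TRiC, the cytosolic chaperonin for actin and tubulin, were lower at each of the 4 doses, as were 15.1% of all genes. At 1 µM their median was -1.51, from -2.48, SE 0.16 for CCT5 to -1.04, SE 0.19 for CCT4, and 8 of 8 stayed lower with library totals, with both other scalings and with DESeq2. Of 13 co-chaperones of Hsp90 and Hsp70, 1 was higher and 8 lower at 1 µM. FKBP4, an immunophilin that links Hsp90 to steroid receptors, fell from 419 ± 19.7 to 46.5 ± 4.14 CPM (-3.17, SE 0.22), and UNC45A, a myosin chaperone, rose from 116 ± 2.91 to 256 ± 10.4 CPM (1.14, SE 0.22). Of 9 nucleotide exchange factors of Hsp70, 2 were higher and 6 lower. BAG2 fell from 196 ± 14.9 to 10.2 ± 1.01 CPM (-4.25, SE 0.17) and BAG3, itself heat-inducible, from 95.9 ± 9.18 to 40.3 ± 7.21 CPM (-1.25, SE 0.17), whereas SIL1, the exchange factor of BiP, rose from 30.0 ± 0.829 to 61.8 ± 8.89 CPM (1.04, SE 0.22).

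Of 5 heat shock factors and regulators, 1 was higher and 3 lower at 1 µM. HSF1 message went from 227 ± 25.6 to 92.8 ± 17.7 CPM at 1 µM (-1.29, SE 0.24), and that of HSF2 from 45.9 ± 4.35 to 28.1 ± 0.730 CPM (-0.70, SE 0.14). HDAC6, a cytosolic deacetylase of tubulin and Hsp90, rose from 55.2 ± 1.95 to 152 ± 12.3 CPM (1.46, SE 0.13). These are levels of message, and HSF1 is switched on by changes to the protein that RNA does not show. Of 8 relatives of the members under other symbols 6 were tested, and 4 were lower at 1 µM. The lowest was TRAP1, the mitochondrial Hsp90, from 497 ± 5.22 to 124 ± 4.20 CPM (-2.0, SE 0.22).

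The other members complete the count. HSPBP1, an exchange factor of Hsp70, and HSPBAP1, which binds Hsp27, were lower at 1 µM (-1.06, SE 0.43 and -0.64, SE 0.21), and the first of these calls was lost in 15 of 24 alternative settings. DNAJC17, DNAJC24 and DNAJC25 were lower and DNAJC4 and DNAJC16 higher at 1 µM, while DNAJB7, DNAJC14 and DNAJC27 were not called there. Too low to test were DNAJB8, DNAJC5B, HSPB2 and HSPB9, and the readthrough transcripts DNAJC25-GNG10, HSPB2-C11orf52 and HSPE1-MOB4 had 0 counts in all libraries. DNAJC5B had 0 counts in untreated cells, which allows up to 3 counts over the 3 libraries (0.0395 CPM), and 16, 31, 22 and 21 counts at the 4 doses. As for promoters, the short heat shock element stood in 7 of the 22 members lower at all 4 doses that had a promoter entry, in 1 of 11 higher at all 4, in DNAJB1 and HSPA1B but not DNAJB9 among the 3 called in opposite directions, in 7 of 17 called at some doses, and in 5 of 11 called at none. The long form stood in 6 of the 22 lower at all 4 doses, in 1 of the 17 called at some (HSPA6), and in 0 of the 11 higher at all 4, 0 of the 3 and 0 of the 11 called at none.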

How the data were processed

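Poly(A) RNA of 15 K-562 libraries was sequenced. The submitters' processing notes name Trim Galore 0.6.10, HISAT2 2.2.1, SAMtools 1.21, featureCounts 1.5.3 and hg38. The authors deposited raw counts per gene for all libraries, which were used here as whole counts without normalization. Whether counting used strand is not given in the sources used here. FPKM values deposited for each library were set aside.

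Genes passing filterByExpr (23711) entered a fit of all 15 libraries with the group as the only term in edgeR 4.0.16 (R 4.3.3; TMM scaling, robust quasi-likelihood test, Benjamini-Hochberg adjustment, threshold 0.05). The fit was tested on simulated data. The filter read all 15 libraries, so genes with almost no counts in untreated cells could pass through treated groups. HSPA2, HSPA12A, HSPB8 and DNAJC5G did so and could hardly be called lower. The shares over all genes include such genes too. SE is the log2 fold change divided by the square root of F. CPM used TMM-scaled totals, and CPM per kilobase the union of exons in GENCODE 44. Depth per library is in the first paragraphs, and intervals cover counting error only.

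The rule for members reads gene symbols alone, but it and the gene lists were chosen with earlier results of these data known. Full values are given for heat-inducible members, mitochondrial members and 6 ER members (HSPA5, HSP90B1, DNAJB9, DNAJB11, DNAJC3, DNAJC10), for up to 3 called members at each end of every family at 1 µM (mean of at least 5 CPM), and for members called in opposite directions. In each list the called genes at either end of the 1 µM values are named, plus HSF1, HSF2, BAG3 and HDAC6, and a few other members were named after their values were seen. A list gene that this rule names is not reported here. Alternatives were other scalings and filters, DESeq2 1.42.0, fits of 2 groups, a replicate block and each library left out. Leaving out replicate 3 at 0.25 and 0.5 µM together was chosen after seeing the data. Same-numbered libraries deviated together (r 0.235, 0.236 and 0.542) between 0.25 and 0.5 µM and nowhere else above 0.1, so replicate numbers were not treated as pairing across the series. A search of protein sequences was not run here.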

Additional observations from a re-analysis of the deposited data

Results flagged for a closer look

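The effects at 0.15 and at 1 µM, each against the same untreated libraries, differed in direction for 3 members, and the difference between the doses was itself tested (edgeR quasi-likelihood test over all genes). DNAJB1 was lower at 0.15 µM and higher at 1 µM, a log2 difference of 2.37. HSPA1B turned the same way by 1.43. DNAJB9 turned the other way, by -0.81. The call at 0.15 µM was lost in 3 of 24 alternative settings for DNAJB1, in 7 for HSPA1B and in 12 for DNAJB9, and what lies behind these turns was not tested. No group had the 4 or more libraries needed to look for a single outlying library.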

How the results depend on the processing

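Of 88 log2 fold changes followed, 80 were called, and 63 of these kept their call in all 24 alternatives tried. The other 17 lost it in at least 1, and the sign of 0 called values changed. Members called from 0.15 to 0.25 µM were 14 here, 9 with relative log expression factors, 7 in a fit of those 2 groups alone, and 7 to 18 with 1 library left out. Members called in opposite directions at 0.15 and 1 µM were 3 here, 0 with library totals, 0 with TMM from genes of 10 CPM or more, 1 with at least 10 counts in every library, and 0 to 4 with 1 library left out. The replicate block gave 2, and left the counts against untreated cells at 41, 47, 50 and 53 and the step from 0.25 to 0.5 µM at 33. The causes were not tested. Uncalled values at 1 µM changed sign: with library totals, TMM from genes of 10 CPM or more and at least 10 counts in every library they were 0.17, 0.20 and 0.06 for DNAJB11, 0.26, 0.29 and 0.15 for DNAJC30, 0.25, 0.28 and 0.14 for HSP90B1, and 0.25, 0.27 and 0.13 for HSPA4L. DNAJC3, not called here at 1 µM (0.04), was called under the first 2 of these (0.39 and 0.42). With 1 library left out DNAJC30 ran from -0.22 to 0.05 and HSPA6 from -0.13 to 0.67. With 3 libraries a group, low members such as HSPB6 had SEs near 1 on the log2 scale, and smaller differences were not detectable at this depth.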
